A study of Mus musculus with 6 samples.

Results

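Extracellular matrix is cut by proteases that cells secrete or carry on their surface, and 10 genes of this machinery were followed in lung endothelial cells (EC) of infant and young adult mice. They were taken from the deposited expression table by gene symbol: the secreted matrix metalloproteinase (MMP) genes Mmp2, Mmp3 and Mmp11, the membrane-bound Mmp14 and Mmp15, the inhibitor genes Timp1, Timp2 and Timp3, and the related Adamts1 and Adam15. All 10 were present among the 12623 genes of the table. The study asked which genes change as growing lung vessels come to rest. Both groups were C57BL/6N mice, infant or young adult, with no transgene or treatment named for either, and each was measured in 3 numbered libraries. Nothing in the labels says whether these came from separate animals, so p-values measure the spread between libraries, which may be partly technical. In the study's protocol, collagenase-dissociated lungs were stained and sorted by flow cytometry. Live cells positive for CD31 and CD34 and negative for PTPRC, LYVE1, LY76 and PDPN were collected. The negative markers are meant to leave out leukocytes, lymphatic EC and erythroid cells. Transcripts of marker genes of these cells were still present in the libraries, as given below. Values are RPKM (reads per kilobase of transcript, scaled to the mapped reads of each library), which allow levels to be compared between genes because they are given per length. Read depth is unknown, and RPKM were rounded to steps of 0.1. Wherever 3 values of a group are given, they stand in the order of replicates 1 to 3.

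MMPs are zinc proteases that are made as inactive precursors and act on collagens, basement membrane and growth factors held in the matrix. Tissue inhibitors of metalloproteinases (TIMPs) bind their active site, and TIMP2 has a further role, since together with MMP14 on the cell surface it captures the MMP2 precursor for activation. ADAMTS enzymes are secreted relatives that cut proteoglycans, while ADAM proteins sit in the membrane and can shed other surface proteins. In growing vessels, sprouting EC use MMP14 in particular to pass through matrix.

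Promoter sequences from RefSeq (GRCm38.p6, the coordinates of mm10) were available for 9 of the 10 genes, and Mmp2 was not matched. Those of the 3 matched genes that were called lower with age, and that of Mmp3, which is known for its AP-1 site, are shown from 250 bases before to 50 bases after the annotated start, written 5′ to 3′ on the strand of the gene. Capitals mark the letters searched on both strands, namely TGANTCA, known as the AP-1 letters, AGGAAG for PEA3, GGGCGG for the GC box and TATAAA for the TATA box.
Mmp14, chr14:54431348-54431647, plus strand: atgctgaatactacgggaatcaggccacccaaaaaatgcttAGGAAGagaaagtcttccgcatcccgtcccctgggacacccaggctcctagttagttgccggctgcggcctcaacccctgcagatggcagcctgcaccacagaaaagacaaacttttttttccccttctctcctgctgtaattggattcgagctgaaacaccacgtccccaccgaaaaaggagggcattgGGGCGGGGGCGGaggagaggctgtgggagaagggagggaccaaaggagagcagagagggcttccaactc
Mmp11, chr10:75932453-75932752, minus strand: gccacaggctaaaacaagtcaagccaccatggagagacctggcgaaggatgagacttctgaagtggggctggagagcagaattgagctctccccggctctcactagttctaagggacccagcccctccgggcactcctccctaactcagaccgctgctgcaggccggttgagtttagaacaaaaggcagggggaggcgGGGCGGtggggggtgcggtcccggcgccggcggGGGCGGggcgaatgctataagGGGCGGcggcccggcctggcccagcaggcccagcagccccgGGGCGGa
Timp1, chrX:20869916-20870215, plus strand: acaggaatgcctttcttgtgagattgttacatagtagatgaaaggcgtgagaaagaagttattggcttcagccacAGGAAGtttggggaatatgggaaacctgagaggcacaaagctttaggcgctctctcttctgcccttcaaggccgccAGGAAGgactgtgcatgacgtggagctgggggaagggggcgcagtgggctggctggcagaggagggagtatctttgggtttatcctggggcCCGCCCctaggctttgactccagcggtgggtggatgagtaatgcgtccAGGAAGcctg
Mmp3, chr9:7445572-7445871, plus strand: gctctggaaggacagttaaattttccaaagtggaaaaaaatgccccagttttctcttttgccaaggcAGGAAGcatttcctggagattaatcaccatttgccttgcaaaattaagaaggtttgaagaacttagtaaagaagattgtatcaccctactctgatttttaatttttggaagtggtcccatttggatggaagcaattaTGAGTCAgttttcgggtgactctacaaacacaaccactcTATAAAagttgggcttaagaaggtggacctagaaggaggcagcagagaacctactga
The AP-1 letters occurred in 1 of the 9 promoters, in Mmp3 as TGAGTCA with the first base at -46, against 7.81% of 32851 promoters of the same length. PEA3 letters were found in 4 of 9 (35.4% of all promoters), with 3 copies in Timp1 and 1 each in Mmp3, Mmp14 and Timp3. A GC box was found in 8 of 9, all but Mmp3 (35.7% of all promoters), and TATA letters in 2 of 9, Mmp3 and Adamts1 (13.6%). Some of these letters lay directly side by side, such as the 2 GC boxes of Mmp14 at -19 and -13, and none of them is shown here to be bound by a factor.

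Before the genes are described, some facts on the libraries have to stand beside them. The 16 endothelial markers summed to between 3649 and 5406 RPKM in infant and between 5984 and 6619 RPKM in young adult libraries. The sorted cells thus carried the transcripts of EC at both ages. Of the 16, 0 were called lower and 2 higher with age, against 8.1% and 3.33% of all tested genes. All young adult values exceeded all infant values in 9 of the 16, against 16.4% of all tested genes. Fibroblast markers were present too. Of 14, 11 had a row, 10 of these were called lower with age, and their sum was 1314, 348.6 and 946.1 RPKM in infant replicates 1 to 3 against 12.6, 27.8 and 23.8 RPKM in young adult replicates 1 to 3. All 14 mural cell markers had a row and 13 were called lower, with sums of 293.5, 126.6 and 331.2 RPKM against 18.9, 27.4 and 24.9 RPKM. Epithelial markers summed to between 6522 and 11404 RPKM in infant and between 1847 and 8422 RPKM in young adult libraries, and 4 of 11 tested were called lower and 1 higher. For leukocyte markers the sums were 305.2 to 501.9 and 140.4 to 538.0 RPKM, with 4 of 11 called lower, and all 7 erythroid markers were called lower. Of 4 tested lymphatic endothelial markers 0 were called lower and 1 higher. The latter was Lyve1, whose protein was a negative marker of the sort. Lyve1 measured 68.6, 171.4 and 82.7 RPKM across the infant libraries and 396.4, 307.9 and 252.9 RPKM across the young adult ones. No fibroblast or mural marker with a row was at 0 in all young adult libraries. Infant replicate 2 stood apart from the other infant libraries, with fewer fibroblast and mural transcripts and more endothelial ones. The 4 globin genes made up between 3.41% and 23.5% of the infant RPKM and between 0.307% and 0.487% of the young adult RPKM. The infant libraries carried Y-linked transcripts, such as Ddx3y at 20.6, 16.5 and 21.9 RPKM, and the young adult libraries listed them at 0.0. Xist, which is made in female cells, measured 8.2, 8.7 and 7.6 RPKM across the infant libraries and 15.6, 12.5 and 13.4 RPKM across the young adult ones. The infant libraries thus held transcripts of both sexes, and age and sex make-up cannot be told apart here. The study's methods name female mice. Timp1 lies on the X chromosome.

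Among the 10 genes, Mmp2, Mmp11, Mmp14 and Timp1 fell with age, and limma called 0 higher, with adjusted or unadjusted p. The mean RPKM of infant EC exceeded that of young adult EC 9.02-fold for Mmp2, 5.19-fold for Mmp14, 3.48-fold for Mmp11 and 2.43-fold for Timp1. A gene was called when limma gave a Benjamini-Hochberg adjusted p under 0.05 over the 12458 genes tested and the log2 fold change of RPKM + 1 exceeded 0.81 in size, the fold threshold of the study. By this rule 8.1% of all tested genes were called lower and 3.33% higher. An adjusted p under 0.05 alone was reached by 6 of the 10 genes in the lower direction, against 16.2% of all tested genes, and by 1 in the higher direction, against 9.26%. The infant and the young adult values did not overlap in 7 genes, 6 lower and 1 higher with age, whereas this held for 27.1% and 16.4% of all tested genes. The median log2 fold change was -0.58 over the 10 genes and -0.07 over all tested genes. All 10 passed the filter of 1 RPKM in at least 1 library, although Mmp3 did so only through infant replicate 2 and young adult replicate 2. Because the genes were chosen with results of these libraries known, these shares describe them and are no test of the group.

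**Figure D1:**
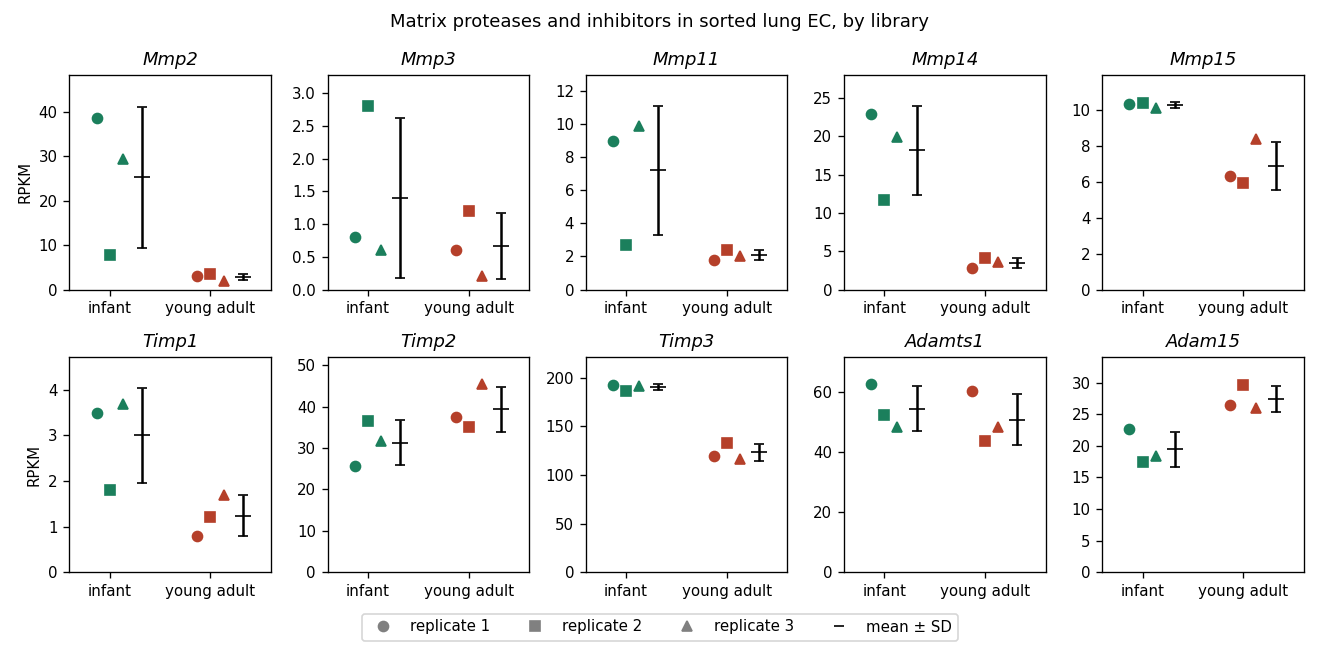
RPKM of the 10 genes in each library, with infant libraries in green and young adult libraries in red, replicates as symbols and bars for the mean ± SD of 3 libraries. Mmp2, Mmp11, Mmp14 and Timp1 are lower in every young adult library than in any infant library, and infant replicate 2, a square, is the lowest infant library in all 4 of them.

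Mmp2 and Mmp11 were the secreted MMPs that changed. Mmp2 (chr8:92827290-92853421), which encodes gelatinase A, a protease of denatured and basement membrane collagen, measured 38.7, 7.7 and 29.4 RPKM across the infant libraries and 3.0, 3.4 and 2.0 RPKM across the young adult ones. All infant values thus lay above all young adult values, but infant replicate 2 was much closer to them than the other infant libraries. Mean RPKM fell from 25.3 ± 15.9 to 2.8 ± 0.721 (SD, n = 3 each), on the log2(RPKM + 1) scale a change of -2.55 ± 0.51 (SE, 95% interval -3.72 to -1.37, limma adjusted p 0.0126). Its call held in 5 of 6 fits that each left out 1 library. Without infant replicate 2 the limma adjusted p was 1.88e-05, but in the other fits that kept the call it was only 0.0424 to 0.0499. The call was lost without young adult replicate 1 (adjusted p 0.0507) and in a test against the fold threshold itself (limma treat, adjusted p 0.169). Without infant replicate 2 the log2 fold change of Mmp2 was -3.21.

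Mmp11 (chr10:75923221-75932502), which encodes a stromelysin that is activated inside the cell by furin, measured 9.0, 2.7 and 9.9 RPKM across the infant libraries and 1.8, 2.4 and 2.0 RPKM across the young adult ones. Infant replicate 2 was only 0.3 RPKM above the highest young adult library. Mean RPKM fell from 7.2 ± 3.92 to 2.07 ± 0.306 (SD, n = 3 each), with a log2 fold change of -1.27 ± 0.38 (SE) and a limma adjusted p of 0.0429. This call rested on the full set of libraries. Of the 6 fits that each left out a library, 5 did not give it, with adjusted p between 0.107 and 0.139, and the exception was the fit without infant replicate 2 (-1.77, adjusted p 4.78e-05). It was also lost with a pseudocount of 5, quantile normalization, robust eBayes, limma treat and the replicate number as a block (adjusted p 0.0625). On the opposite strand Mmp11 shares 155 exon bases with Chchd10, whose RPKM were 1.7, 2.1 and 1.4 across the infant libraries and 0.1, 0.7 and 0.5 across the young adult ones, and since the kit does not mark the strand, reads from the shared bases cannot be told apart.

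Mmp3 (chr9:7445822-7455975), which encodes another stromelysin that cuts proteoglycans and activates other MMP precursors, was near the rounding step. It measured 0.8, 2.8 and 0.6 RPKM across the infant libraries and 0.6, 1.2 and 0.2 RPKM across the young adult ones. The groups overlapped, and the highest value of each came from replicate 2. Its log2 fold change of -0.46 ± 0.36 (SE, 95% interval -1.28 to 0.37) did not pass (limma adjusted p 0.372), and was -0.07 without infant replicate 2.

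Both membrane MMPs were lower in young adult EC, but to a different extent. Mmp14 (chr14:54431598-54442456), the surface collagenase that also activates the MMP2 precursor, measured 22.9, 11.7 and 19.9 RPKM across the infant libraries and 2.8, 4.1 and 3.6 RPKM across the young adult ones. The lowest infant library, again replicate 2, was well above the highest young adult library. Mean RPKM fell from 18.2 ± 5.80 to 3.5 ± 0.656 (SD, n = 3 each), and the log2 fold change was -2.05 ± 0.23 (SE, 95% interval -2.59 to -1.51) at a limma adjusted p of 0.00197. Mmp14 was the gene of the 10 whose call held in all 6 fits without 1 library and in all 15 other settings examined, including limma treat (adjusted p 0.0405).

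Mmp15 (chr8:95352296-95374293), a second membrane MMP, measured 10.3, 10.4 and 10.1 RPKM across the infant libraries and 6.3, 5.9 and 8.4 RPKM across the young adult ones. The infant libraries were nearly equal, replicate 2 included, and all were above the young adult libraries. The log2 fold change was -0.53 ± 0.13 (SE, 95% interval -0.83 to -0.23) with a limma adjusted p of 0.0231, under the fold threshold and therefore not called. Without 1 library its adjusted p ranged from 0.0126 to 0.0865. The ratio of Mmp14 to Mmp15 was 2.22, 1.13 and 1.97 across the infant libraries and 0.444, 0.695 and 0.429 across the young adult ones, so Mmp14 was the higher of both in every infant library and Mmp15 in every young adult library.

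**Figure D2:**
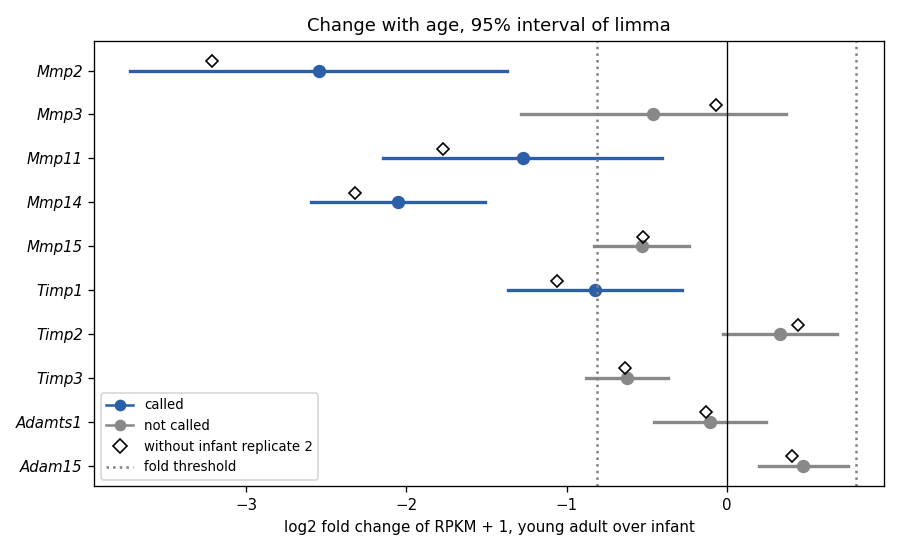
Log2 fold change of RPKM + 1 from infant to young adult for the 10 genes, with the 95% interval of limma as a line, called genes in blue, the value without infant replicate 2 as a diamond and the fold threshold of 0.81 as dotted lines. Mmp2, Mmp14, Mmp11 and Timp1 lie beyond the threshold, and all 4 move further from 0 without infant replicate 2.

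Among the inhibitors, Timp3 was by far the most abundant and Timp1 the only called gene. Timp3 (chr10:86300412-86349505), whose protein binds to the matrix and also inhibits ADAM and ADAMTS enzymes, measured 192.8, 186.8 and 191.3 RPKM across the infant libraries and 119.7, 133.3 and 116.9 RPKM across the young adult ones. The groups did not overlap and both were narrow. The mean was 190.3 ± 3.12 RPKM in infant and 123.3 ± 8.77 RPKM in young adult EC (SD, n = 3 in both groups), a ratio of 0.648. The log2 fold change was -0.62 ± 0.11 (SE, 95% interval -0.88 to -0.37) at a limma adjusted p of 0.00848, under the fold threshold. Its adjusted p stayed between 0.00345 and 0.0433 in the fits without 1 library. When RPKM were rescaled without the globin genes, Timp3 was called lower (-0.82, adjusted p 0.00735). Timp3 shares 1733 exon bases with Syn3 on the opposite strand, which had no row in the table.

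Timp1 (chrX:20870166-20874737), which encodes a soluble inhibitor of most secreted MMPs, measured 3.5, 1.8 and 3.7 RPKM across the infant libraries and 0.8, 1.2 and 1.7 RPKM across the young adult ones. Infant replicate 2 and young adult replicate 3 were 0.1 RPKM apart. Mean RPKM fell from 3.0 ± 1.04 to 1.23 ± 0.451 (SD, n = 3 each), with a log2 fold change of -0.82 ± 0.23 (SE) and a limma adjusted p of 0.0389. This was just beyond the fold threshold. The call held in 2 of the 6 fits without 1 library, those without infant replicate 2 (-1.06, adjusted p 0.0031) and without young adult replicate 3 (-0.97, adjusted p 0.0498), but not in the other 4. It was also lost with a pseudocount of 5, quantile normalization, equal library medians and limma treat.

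Timp2 (chr11:118301061-118355411), the inhibitor that takes part in the activation of MMP2, measured 25.6, 36.5 and 31.7 RPKM across the infant libraries and 37.5, 35.2 and 45.4 RPKM across the young adult ones. The ranges overlapped through infant replicate 2. The log2 fold change was 0.33 ± 0.15 (SE, 95% interval -0.03 to 0.69, limma adjusted p 0.15), and 0.44 with an adjusted p of 0.0467 without infant replicate 2, in both cases under the fold threshold.

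The ADAM and ADAMTS genes were not called. Adamts1 (chr16:85793827-85803113), whose protein cuts versican and aggrecan and carries thrombospondin repeats, measured 63.0, 52.4 and 48.4 RPKM across the infant libraries and 60.4, 43.8 and 48.4 RPKM across the young adult ones. The groups overlapped over most of their range. Its log2 fold change was -0.10 ± 0.15 (SE, 95% interval -0.46 to 0.25, limma adjusted p 0.642). This interval lies within the fold threshold on both sides. Without infant replicate 1 the log2 fold change of Adamts1 was 0.0014.

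Adam15 (chr3:89339640-89350028), a membrane protein with a metalloprotease and an integrin-binding disintegrin domain, measured 22.6, 17.4 and 18.4 RPKM across the infant libraries and 26.4, 29.7 and 26.0 RPKM across the young adult ones. It was the only gene of the 10 whose young adult values all exceeded its infant values. The mean was 19.5 ± 2.76 RPKM in infant and 27.4 ± 2.03 RPKM in young adult EC (SD, n = 3 in both groups), a ratio of 1.41. The log2 fold change was 0.48 ± 0.12 (SE, 95% interval 0.20 to 0.76, limma adjusted p 0.0262), under the fold threshold. Leaving out 1 library gave adjusted p between 0.0248 and 0.1005, above 0.05 in 4 of the 6 fits. The replicate block gave 0.0572 and rescaling without the globin genes 0.184. Adam15 shares 1263 exon bases with the antisense gene 4731419I09Rik, whose RPKM were 6.7, 4.8 and 4.9 across the infant libraries and 6.8, 8.1 and 7.3 across the young adult ones, and reads from the shared bases cannot be assigned to a strand.

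The 10 genes differed in how infant replicate 2 compared with the other infant libraries. The ratio of its RPKM to the mean of infant replicates 1 and 3 was 0.226 for Mmp2, 0.286 for Mmp11, 0.5 for Timp1 and 0.547 for Mmp14, the 4 called genes. It lay between 0.849 and 1.27 for Adam15, Adamts1, Timp3, Mmp15 and Timp2, and was 4.0 for Mmp3. Over the marker lists the same ratio of summed RPKM was 0.308 for fibroblast, 0.405 for mural, 1.43 for endothelial, 2.04 for lymphatic endothelial, 1.38 for leukocyte, 1.52 for epithelial and 0.175 for erythroid markers. Such sums are weighted to the most abundant genes, for epithelial markers Sftpc and Scgb1a1. The lymphatic endothelial sum was mostly Lyve1 (ratio 2.27). Flt4 had a ratio of 1.11, Pdpn 0.72 and Ccl21a, at 1.3 RPKM or less, 6.5. The called genes had ratios of at most 0.547, and the fibroblast, mural and erythroid sums were under 1 as well. The uncalled Adam15, Adamts1 and Timp3 were also under 1, at 0.849, 0.941 and 0.973. All 7 erythroid markers were lowest in infant replicate 2 among the infant libraries. Of 11 fibroblast markers, 9 were lowest in infant replicate 2 among the infant libraries, whereas Dcn and Lum were highest in it. Infant replicate 2 was the lowest infant library for 35.6% of all tested genes and for 77.9% of the genes called lower. In bulk libraries fewer cells of a type and less RNA per cell cannot be told apart, and the part of fibroblast, mural and erythroid transcripts in the fall of Mmp2, Mmp11, Mmp14 and Timp1 was not tested. Without infant replicate 2 the same 4 genes were called lower and 0 higher, against 10.6% and 4.57% of all genes tested in that fit.

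**Figure D3:**
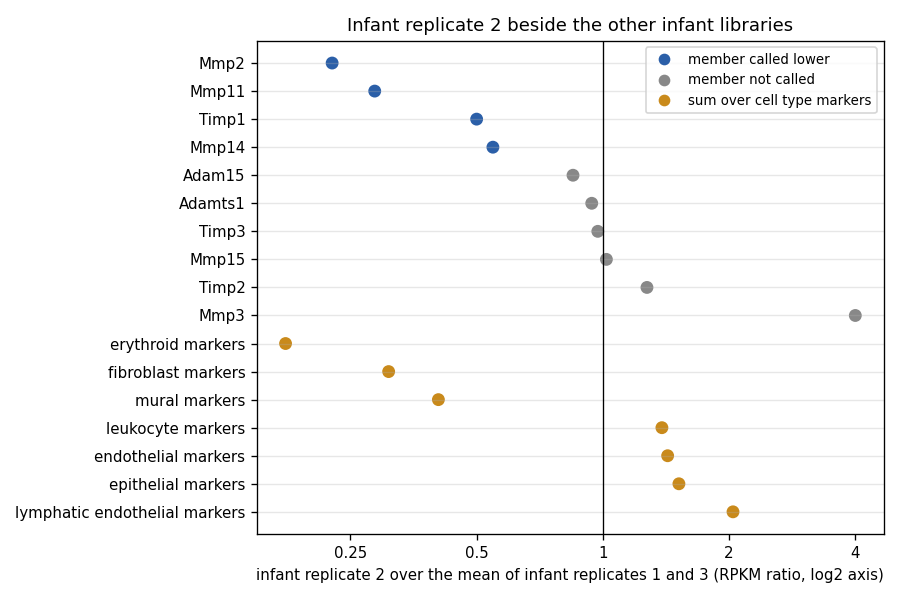
RPKM of infant replicate 2 divided by the mean of infant replicates 1 and 3, on a log2 axis, for the 10 genes (blue if called lower, grey if not called) and for summed cell type markers (gold). The 4 called genes lie between 0.226 and 0.547 and the erythroid, fibroblast and mural sums at 0.175, 0.308 and 0.405, while Mmp15, Timp3, Adamts1 and the other genes lie nearer to 1 except Mmp3 at 4.0. The other marker sums lie above 1, up to 2.04 for lymphatic endothelial markers, a sum made up mostly of Lyve1.

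Levels were then summed to compare proteases with inhibitors. The 5 MMP genes summed to 81.7, 35.3 and 69.9 RPKM in infant and to 14.5, 17.0 and 16.2 RPKM in young adult libraries. For the 3 TIMP genes the sums were 221.9, 225.1 and 226.7 RPKM against 158.0, 169.7 and 164.0 RPKM. Both sums were thus lower in every young adult library, and infant replicate 2 stood apart in the MMP sum but not in the TIMP sum. In all 6 libraries the sum of these 3 TIMP genes exceeded that of these 5 MMP genes. The factor was 2.72, 6.38 and 3.24 in infant and 10.9, 9.98 and 10.1 in young adult libraries. Left out were 5 other tested MMP genes, which together reached 8.9, 6.7 and 7.7 RPKM in infant replicates 1 to 3. In the young adult replicates they reached 5.9, 6.1 and 6.7 RPKM. Timp4, at 1.2 RPKM or less in every library, was left out too. Counting all of these would lower every ratio, and the young adult ratios most. These ratios are of transcripts and give no measure of enzyme activity.

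**Figure D4:**
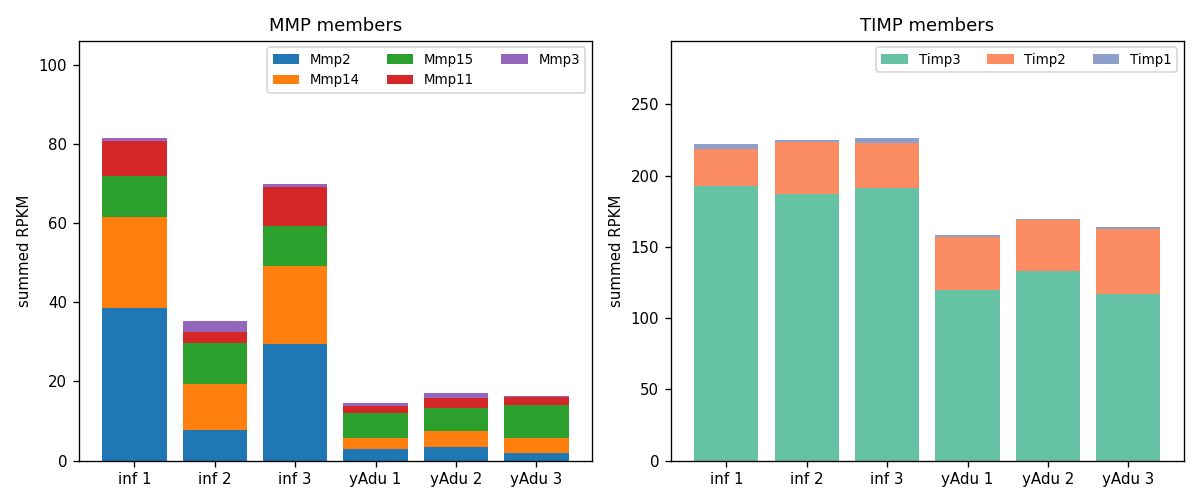
Summed RPKM of the 5 MMP genes (left) and the 3 TIMP genes (right) in each library, stacked by gene, with inf for infant and yAdu for young adult. The MMP sum ranges from 35.3 to 81.7 RPKM in infant and from 14.5 to 17.0 RPKM in young adult libraries, and Timp3 makes up most of each TIMP bar.

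The make-up of these sums also differed with age. Timp3 made up 86.9%, 83.0% and 84.4% of the TIMP sum in infant and 75.8%, 78.6% and 71.3% in young adult libraries. Mmp15 made up 12.6%, 29.5% and 14.4% of the MMP sum in infant and 43.4%, 34.7% and 51.9% in young adult libraries, whereas Mmp2 took 47.4%, 21.8% and 42.1% and then 20.7%, 20.0% and 12.3%. In infant replicates 1 and 3 Mmp2 was the most abundant MMP transcript, in infant replicate 2 it was Mmp14, and in all young adult libraries it was Mmp15. For the pair that acts together on the MMP2 precursor, the ratio of Mmp14 to Timp2 was 0.895, 0.321 and 0.628 across the infant libraries and 0.0747, 0.116 and 0.0793 across the young adult ones. No p is given for these sums and ratios, since the genes were chosen with results of these libraries known.

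By mean RPKM the order in infant EC was Timp3, Adamts1, Timp2, Mmp2, Adam15, Mmp14, Mmp15, Mmp11, Timp1 and Mmp3. Neighbours in this order overlapped in range for Timp2 and Mmp2, Mmp2 and Adam15, Adam15 and Mmp14, Mmp11 and Timp1, and Timp1 and Mmp3. In young adult EC Adam15 and Mmp15 stood above Mmp14 and Mmp2, and the overlapping neighbours were Adamts1 and Timp2, Mmp14 and Mmp2, Mmp2 and Mmp11, and Timp1 and Mmp3. Relative to all genes, Timp3 exceeded 98.6% of them in infant and 97.4% in young adult EC, and Adamts1 92.8% and 91.8%. Mmp2 moved from above 83.6% of genes to above 32.8%, Mmp14 from 77.3% to 37.8%, and Mmp11 from 53.5% to 26.9%. The levels of Mmp3 and Timp1 were low at both ages, above at most 29.6% of genes.

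The genes most like each of the 10 were sought among the 6984 genes with a mean of at least 5 RPKM, by the root mean square difference of log2(RPKM + 1) after centring, over the 6 libraries. Nearest to Mmp2 were Fstl1 (0.16), Tbx4 (0.16) and Col5a2 (0.18), and infant replicate 2 was the lowest infant library in all 3, as in Mmp2. Nearest to Mmp14 were Rasl11a (0.13), the protease gene Adam19 (0.13) and Klhl23 (0.16). Cd44 (0.09), Car2 (0.13) and Mxra8 (0.15) were closest to Mmp11, and Unc5b (0.09), Sdc4 (0.09) and Rnaseh2b (0.10) to Timp1. Timp3 had a closer neighbour in Ube2h (0.02), and Mmp15 was nearest to Tpd52, Calm3 and Sgcb (0.06, 0.06 and 0.07). For Adam15 the nearest gene was its overlapping antisense neighbour 4731419I09Rik (0.06). Mmp3 had no neighbour closer than 0.27. Likeness over 6 libraries in 2 groups is a description only.

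A wider list of 81 other protease and inhibitor genes placed the 10 among their families. Of these, 53 had a row and 52 were tested. 23 were called lower and 1 higher, 28 were not called, and the median log2 fold change was -0.79. Over all tested genes 8.1% were called lower and 3.33% higher, with a median of -0.07. Among the genes with no row were 13 of 18 other MMP genes. Of the 23 lower genes, 14 had a young adult mean under 1 RPKM and 10 an infant mean of at least 5 RPKM. Those 14 were Mmp23, Adamts2, Adamts5, Adamts7, Adamts8, Adamts12, Adamts15, Adamts17, Adam12, Adam23, Adam33, Pcsk6, Htra1 and Htra3. They passed the filter only through infant libraries, where they are high. Their calls depend on that filter, and their calls and p-values are a description and no test. When a mean of at least 1 RPKM was required instead, 19 were called lower, and over all genes 847 instead of 1009. The list was put together with earlier results known and is no independent sign of a direction.

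Of the ADAMTS and ADAMTS-like genes, 9 of 16 tested were called lower: Adamts2, Adamts5, Adamts7, Adamts8, Adamts10, Adamts12, Adamts15, Adamts17 and Adamtsl2. Adamts10, which is tied to fibrillin microfibrils, was the most abundant, with 146.2, 50.5 and 99.9 RPKM across the infant libraries and 17.0, 26.0 and 22.9 RPKM across the young adult ones (a log2 change of -2.01 ± 0.35 SE, limma adjusted p 0.00841). Of 9 tested ADAM genes 4 were called lower, namely Adam12, Adam19, Adam23 and Adam33. Adam12 measured 5.8, 4.4 and 6.1 RPKM across the infant libraries and 0.6, 0.5 and 0.9 RPKM across the young adult ones (-1.95 ± 0.15 SE, adjusted p 0.000642), and Adam23 2.4, 2.2 and 2.7 against 0.4, 0.5 and 0.4 RPKM (-1.26 ± 0.12 SE, adjusted p 0.00131). Infant replicate 2 was the lowest infant library for both, at 0.74 (Adam12) and 0.863 (Adam23) of the mean of the others. Adam33 measured 6.9, 1.4 and 4.9 RPKM across the infant libraries and 0.2 RPKM or less across the young adult ones. Adam12, Adam23 and Adam33 passed the filter only through infant libraries, as did the called ADAMTS genes other than Adamts10 and Adamtsl2. The calls and p-values of these genes are therefore a description and no test.

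Of the other MMP genes 5 were tested, and of the other inhibitor genes 2, with 1 called lower in each group. Mmp23 was the called MMP gene (3.7, 0.9 and 3.2 RPKM in infant, 0.1, 0.1 and 0.4 RPKM in young adult libraries, adjusted p 0.0176). It passed the filter only through infant libraries, so its call is a description and no test. The called inhibitor gene Reck, which encodes a membrane-anchored inhibitor of MMP14 and MMP2, fell from 4.1, 2.8 and 4.1 RPKM to 1.2, 1.1 and 1.4 RPKM (-1.05 ± 0.15 SE, limma adjusted p 0.00405).

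In the plasminogen system, which activates MMPs, Plau was the only gene of the list that was called higher. Plau, which encodes the urokinase that turns plasminogen into plasmin, measured 1.2, 1.4 and 0.5 RPKM across the infant libraries and 4.3, 4.3 and 7.5 RPKM across the young adult ones. All young adult values exceeded all infant values, with a log2 fold change of 1.64 ± 0.24 (SE) and a limma adjusted p of 0.00458, and the call held in all 6 fits without 1 library. Its receptor gene Plaur was the most abundant gene of the list, with 134.4, 201.6 and 138.7 RPKM across the infant libraries and 236.5, 155.9 and 245.2 RPKM across the young adult ones, and the groups overlapped (0.42 ± 0.23 SE, adjusted p 0.205). Serpine2, which encodes a protease inhibitor that blocks urokinase and thrombin, fell from 205.5, 21.4 and 177.4 RPKM to 4.3, 7.2 and 4.9 RPKM (-3.88 ± 0.76 SE, adjusted p 0.0122), with infant replicate 2 far below the other infant libraries. The proprotein convertase genes Pcsk5 (-1.08, adjusted p 0.00683) and Pcsk6 (infant 0.8, 0.4 and 1.3 RPKM, listed at 0.0 in young adult libraries) were called lower too.

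The remaining calls were in procollagen processing genes, a cathepsin gene and secreted serine protease genes. Pcolce, which encodes an enhancer of procollagen processing, fell from 24.0, 9.4 and 29.5 RPKM to 1.6, 2.8 and 3.2 RPKM (-2.53 ± 0.38 SE, limma adjusted p 0.00509), and Bmp1, the procollagen C-proteinase, by 0.85 on the log2 scale (adjusted p 0.0208). The collagen-degrading cathepsin gene Ctsk (-1.54) and the secreted serine protease genes Htra1 (-2.06) and Htra3 (-0.83) were also lower. The abundant genes Ctsl, Ctsb and Bsg, the last of which encodes an inducer of MMPs, were not called. Bsg measured 78.9, 76.5 and 76.8 RPKM across the infant libraries and 70.3, 77.2 and 79.6 RPKM across the young adult ones (-0.03 ± 0.10 SE, adjusted p 0.827), and Ctsl and Ctsb had log2 fold changes of -0.11 and -0.02.

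**Figure D5:**
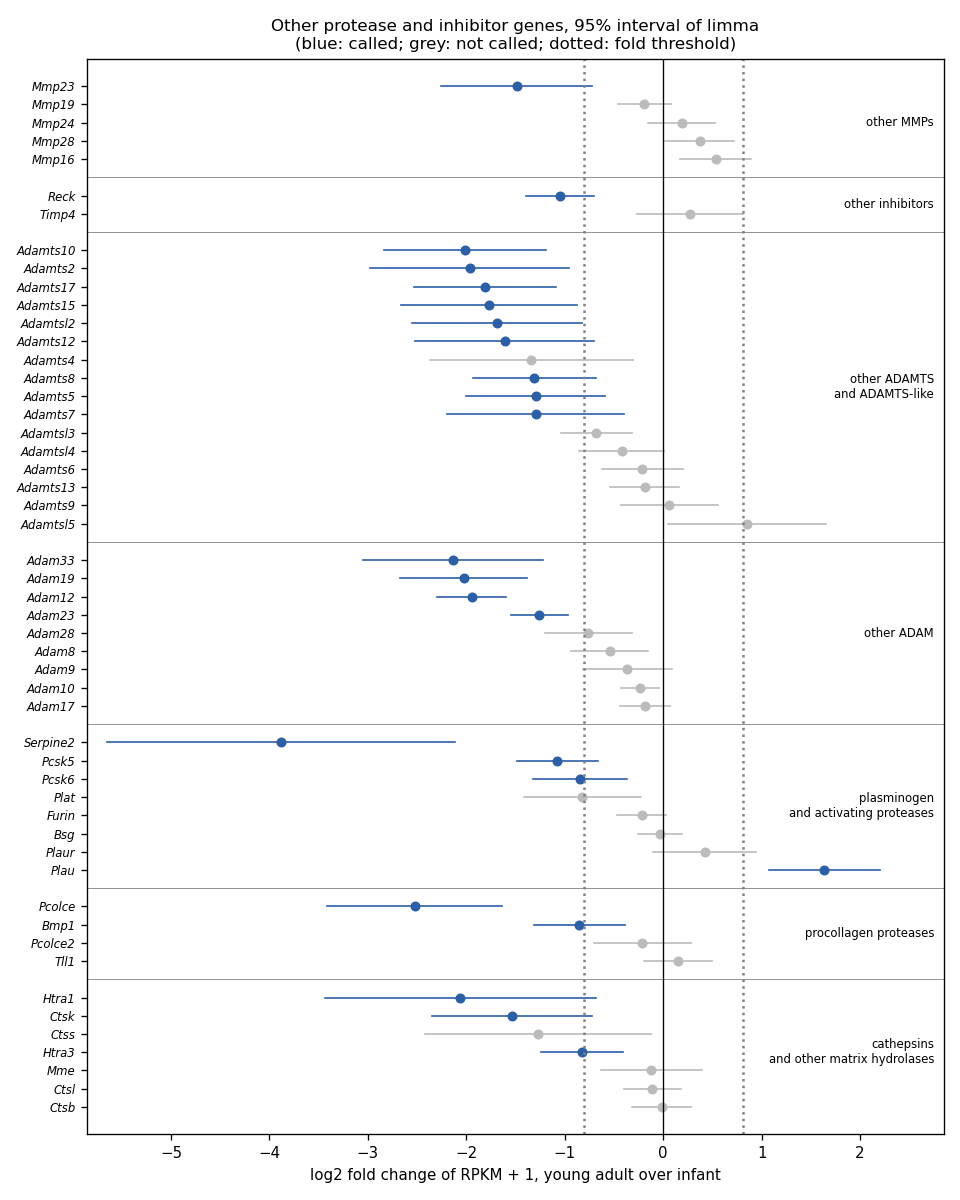
Log2 fold change of RPKM + 1 from infant to young adult for the tested genes of the wider list that are reported, grouped by family, with 95% intervals of limma, called genes in blue and the fold threshold as dotted lines. The calls lie to the left of 0 with 1 exception, Plau at 1.64, and Serpine2 has the lowest value at -3.88.

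The calls of the wider list depended on single libraries to a varying degree. 10 of the 24 called genes were called in all 6 fits without 1 library, 3 in 3 to 5 of them and 11 in 1 or 2. Reck, Adamts10, Adamts17, Adam12, Adam19, Adam23, Adam33, Plau, Pcsk5 and Pcolce were those called throughout. Of these, Adamts17, Adam12, Adam23 and Adam33 were under 1 RPKM in every young adult library. They passed the filter only through infant libraries, so their calls are a description and no test. Without infant replicate 2 all 24 calls were kept, and the list had 25 genes lower and 2 higher. Of all genes tested in that fit, 10.6% were called lower and 4.57% higher. Over all tested genes, lower calls ranged from 518 to 1308 without 1 library, against 1009 in all libraries together. How many of all called genes held in all 6 fits was not counted. The 10 of 24 can therefore not be set against other genes.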

How the data were processed

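RNA-seq was measured in 6 libraries of EC sorted from lungs of C57BL/6N mice, 3 infant and 3 young adult, grouped by title. The authors isolated RNA with a PicoPure kit, used the SMARTer Ultra Low kit for cDNA without marking the strand, aligned reads to mm10 with STAR, counted on RefSeq and tested with DESeq2. The deposited RPKM table had 17241 transcript rows rounded to 1 decimal and 0 further columns with values. Tool versions and the program behind RPKM are not given in the sources used here. Counts were not used here and depth is unknown, so no counting error is attached, and p-values measure the spread between libraries.

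For each gene the row with the highest mean RPKM was kept (12623 genes), after 24 rows with symbols turned into dates had been restored. Because the values were RPKM, limma 3.58.1 in R 4.3.3 (lmFit, eBayes with an intensity trend) replaced the count test, on log2(RPKM + 1) with a pseudocount of 1, genes of at least 1 RPKM in 1 library, Benjamini-Hochberg adjustment and the study's fold threshold (0.81 on the log2 scale). The pseudocount understates fold changes of low genes. The script was tested on simulated data. The 10 genes and all lists were chosen with earlier results of these data known. All 10 genes are named, and of the wider list every called gene and the 6 with the highest mean RPKM. 1 further tested gene of that list enters its counts but is not reported here. Sequences came from RefSeq promoters of GRCm38.p6, and shared exon bases from the GENCODE annotation of the same build. Alternatives were pseudocounts of 0.1 and 5, other filters, 3 scalings, other limma settings, a replicate block, sums or means of transcript rows, other thresholds and leaving out each library.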

Additional observations from a re-analysis of the deposited data

How the results depend on the processing

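Of the 10 genes, 4 were called lower in all libraries together. This count was 2 with a pseudocount of 5, 2 under quantile normalization and 1 under limma treat, which tests against the fold threshold itself, and it ranged from 1 to 4 when 1 library was left out, being 2 if infant replicate 1, infant replicate 3 or young adult replicate 2 was missing and 1 if young adult replicate 1 was. Higher calls stayed at 0 throughout. Over all tested genes the 1009 lower calls became 338 with a pseudocount of 5, 610 under quantile normalization and 124 under limma treat. They ranged from 518 to 1308 when 1 library was left out. Of the wider list, 23 lower calls became 7 with a pseudocount of 5 and 1 under limma treat, with a range of 9 to 25 without 1 library (11 if infant replicate 1 or young adult replicate 2 was missing, 12 if infant replicate 3 was and 9 if young adult replicate 1 was). The 1 higher call became 2 with a pseudocount of 0.1, quantile normalization, array weights or an unadjusted p, 0 with a pseudocount of 5 or limma treat, and 1 to 2 without 1 library. Over all tested genes the 415 higher calls became 532, 532, 512 and 430 in the former settings, and 240 and 52 in the latter. The cause of these shifts was not tested. The fits without 1 library also had smaller samples, and the part of sample size was not tested either. The log2 fold change of Adamts1, which was not called, changed sign without infant replicate 1 (0.0014).

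Quantile normalization moved the median log2 change over all tested genes from -0.07 to 0.04 and rescaling without globin genes to -0.23, and the share of calls that were higher went from 29.1% to 46.6% and 17.3%. With a pseudocount of 5 this share was 41.5%. Relative to these medians the values of Mmp2 and Mmp11 lay between -2.50 and -2.47 and between -1.22 and -1.14 over the 4 scalings. Same-numbered libraries deviated from their group means with correlations across genes of 0.0282, -0.11 and -0.021, which gave no sign of pairing. The labels do not say what a shared number stands for, and so few libraries cannot exclude a pairing. With the replicate block 3 of the 10 genes were called lower, since Mmp11 lost its call (adjusted p 0.0625), and 22 of the wider list. Over all tested genes 959 were called lower with this block and 1009 without it.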

Other observations

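Some genes of the wider list lay outside the rule for naming and are given here after their values were seen. Mmp16, a membrane MMP gene, measured 0.4, 0.2 and 0.4 RPKM across the infant libraries and 1.1, 0.7 and 1.0 RPKM across the young adult ones. It passed the filter only through young adult libraries, where it is high, so its values are a description and no test. The groups did not overlap, as in 16.4% of all tested genes in this direction. Its limma adjusted p was 0.0417, with a change under the fold threshold. Adamtsl5 measured 3.0, 6.5 and 1.9 RPKM across the infant libraries and 4.9, 7.3 and 9.4 RPKM across the young adult ones (0.85 on the log2 scale, adjusted p 0.109), and it was called higher without infant replicate 2. Plat, which encodes the tissue plasminogen activator, measured 88.0, 43.6 and 85.1 RPKM across the infant libraries and 41.3, 40.4 and 34.4 RPKM across the young adult ones (-0.82, adjusted p 0.0506), and was called lower without infant replicate 2. The sheddase genes Adam10 and Adam17 were not called, with log2 fold changes of -0.24 and -0.18.

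Timp1 and Adam15 each had 2 transcript rows, which differed by at most 0.1 RPKM for Timp1 and by up to 1.4 RPKM for Adam15.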
